A study of Mus musculus with 28 samples.

Results

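The enzymes described here attach a polar group to drugs, hormones, bile pigments and products of oxidation, the step of detoxification known as phase II. The members were taken as the probes whose gene name in the scanner files belongs to the glutathione S-transferases (Gsta, Gstm, Gstp, Gstt, Gsto, Gstk and Gstz), the microsomal glutathione S-transferases (Mgst), the UDP-glucuronosyltransferases (Ugt), the sulfotransferases (Sult) or the arylamine N-acetyltransferases Nat1 and Nat2. The rule used names and no measured value. It found 66 of the 41174 probes on the array, and 62 of them passed the filter on dim probes. They stand for 50 of the 21070 genes tested, and no member gene was lost by the filter. By subfamily these were 4 alpha, 7 mu and 1 pi glutathione S-transferases, 8 of the theta, omega, kappa and zeta classes, 3 microsomal glutathione S-transferases, 3 UGT1, 9 UGT2 and 3 UGT3 or UGT8 glucuronosyltransferases, 11 sulfotransferases and 1 N-acetyltransferase, Nat2.

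The study set liver organoids against their parental tissue and unrelated tissues on 28 arrays, each carrying Cy3-labelled RNA of a C57BL/6 mouse sample beside a Cy5-labelled Stratagene mouse reference RNA. The organoids had been grown from single cells isolated for Lgr5, a receptor of the Wnt pathway, and were kept in differentiation medium (DM, 1 array, for which the labels give no biological replicate) or expansion medium (EM, 2 arrays). Freshly obtained liver samples were duct cells sorted with the antibody MIC1-1C3 (2 arrays), Lgr5-sorted cells labelled as 6 days of treatment with the liver toxin carbon tetrachloride, CCl4 (2 arrays), a hepatocyte fraction (2 arrays), livers labelled as day 3 and day 13 of CCl4 treatment (2 arrays each), whole liver (2 arrays) and adult liver of wild-type mice (2 arrays). Pancreas (2 arrays), brown fat, white fat and muscle (3 arrays each) of wild-type mice were the other tissues. The labels call the arrays of a group biological replicates, give neither age nor sex, and do not say which arrays came from separate animals, so p-values measure the spread between these arrays.

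Phase II enzymes share a logic. Glutathione S-transferases couple glutathione to electrophiles, glucuronosyltransferases transfer glucuronic acid from UDP-glucuronic acid to phenols, steroids, bile acids and bilirubin, and sulfotransferases use the sulfate donor PAPS on phenols, catecholamines and steroids. The liver is the main organ of these reactions, and its hepatocytes carry most of them, while the conjugates leave through ABC transporters into bile and blood.

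The probes are 60 bases long. Among 2126 pairs of probes of different members, only the pair for Gsta1 and Gsta2, closely related alpha-class enzymes, shared a long stretch. Probes were compared with each other and not with the transcripts of related genes. How far the other probes tell close relatives apart was therefore not tested. The Gsta1 and Gsta2 probes are shown 5′ to 3′ because their values recur below, with their common stretch in capitals. The Gsta1 probe lies at chr9:78083844-78087325 on the plus strand and the Gsta2 probe at chr9:78181644-78181703 on the minus strand (mm9, positions as the files give them).
Gsta1: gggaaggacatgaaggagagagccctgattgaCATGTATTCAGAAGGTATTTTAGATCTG
Gsta2: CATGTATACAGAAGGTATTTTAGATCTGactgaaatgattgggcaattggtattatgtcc
The overlap covers 28 bases, of which 27 were identical. The difference is T40A, counted from 1 at the 5′ end of the Gsta1 probe, and the longest identical run was 20 bases, against 12 bases in the next pair. Cross-hybridisation between these probes cannot be separated from shared change, so Gsta1 and Gsta2 are not independent readouts here. The Ugt1a genes share their later exons and differ in the first. The Ugt1a6b probe (chr1:90115472-90115531, mm9) lies downstream of the Ugt1a1 probe (chr1:90108880-90108939, mm9), so it may lie in the shared exons. Whether it reads Ugt1a6b alone was not tested. Values given for Ugt1a6b are those of the probe so named and may not be independent of Ugt1a1 and Ugt1a9. Gstp1 has a near-identical mouse copy, Gstp2, and its values are those of the probe named Gstp1.

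Close together on chromosome 5 sit 12 members, the 9 UGT2 genes with Sult1b1, Sult1d1 and Sult1e1, whose probes lie between 87319553 and 88005246 (mm9). Since many of the largest differences below are among them, the sequence just before their transcription starts was examined in RefSeq windows of 250 bases before to 50 bases after the start (GRCm38.p6), which 44 of the 50 members had. Ugt2b5, Ugt2b37 and Ugt2b38 carried an identical run of 62 bases there, in capitals in the last 100 bases before each start, all on the minus strand of GRCm38.p6, at chr5:87140341-87140440, chr5:87254789-87254888 and chr5:87424204-87424303 in that order.
Ugt2b5: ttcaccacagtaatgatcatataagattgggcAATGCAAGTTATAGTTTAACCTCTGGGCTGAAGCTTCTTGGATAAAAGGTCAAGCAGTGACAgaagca
Ugt2b37: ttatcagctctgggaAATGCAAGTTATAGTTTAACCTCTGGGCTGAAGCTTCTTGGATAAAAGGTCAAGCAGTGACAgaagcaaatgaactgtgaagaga
Ugt2b38: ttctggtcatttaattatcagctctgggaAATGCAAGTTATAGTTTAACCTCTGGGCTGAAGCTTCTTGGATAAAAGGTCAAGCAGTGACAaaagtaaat
These 3 genes were picked for this comparison, and the run is the longest stretch common to them. Runs shared by other members were not searched for. The run was found in 3 of 32851 windows of all genes (0.00913%), those of the same 3 genes, so this count is no test of rarity. Among transcription factor motifs, searched on both strands, the motif CAAAGTCCA of the hepatic factor HNF4 was present in the window of Sult1b1 alone among these members and in 0.475% of all windows. The antioxidant response element core TGACNNNGC was present in the windows of Gsta3, Gstm5, Gstm7 and Mgst1 and in 12.4% of all windows. A partial site of the hepatic factor HNF1 was present in the windows of Sult1d1, Ugt1a1 and Ugt1a9 and in 0.399% of all windows. These are matches of letters and say nothing of binding.

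Values are log2 of the Cy3 sample signal over the Cy5 reference signal, so 0 is the level of the reference RNA, and they are compared between groups for the same probe, never between probes. A difference was called when limma gave a Benjamini-Hochberg adjusted p under 0.05 over all genes tested and an absolute log2 difference of at least 1. Where no array of the lower group had a probe well above background, the fold is given as "at least", computed from the Cy3 channel alone after loess and Aquantile normalisation, with each dim array raised to percentile 5 of the probes well above background on it. Since that scale differs from the Cy3/Cy5 ratio, such a bound need not match the fitted log2 difference, and where it came out above the fold of the ratio itself, the log2 difference is given and no bound. No member was saturated on any array, and the number of arrays limits the precision throughout. Between 17.8% and 69.1% of probes were well above background per array, with 53.9% and 31.4% on the EM arrays and 30.9% on the DM array. Hepatocyte markers tested numbered 7: on the DM array 2 were above background, on the EM arrays 4 and 0, and on each adult liver array 7. Bile duct markers above background were 5 of 6 on the DM array, 6 of 6 on each EM array and each duct array, but 2 and 1 of 6 on the Lgr5-sorted arrays, where macrophage markers were at mean log2 ratios of 6.68 and 4.60. In these bulk samples, fewer cells of a type and less RNA per cell cannot be told apart.

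**Figure D1:**
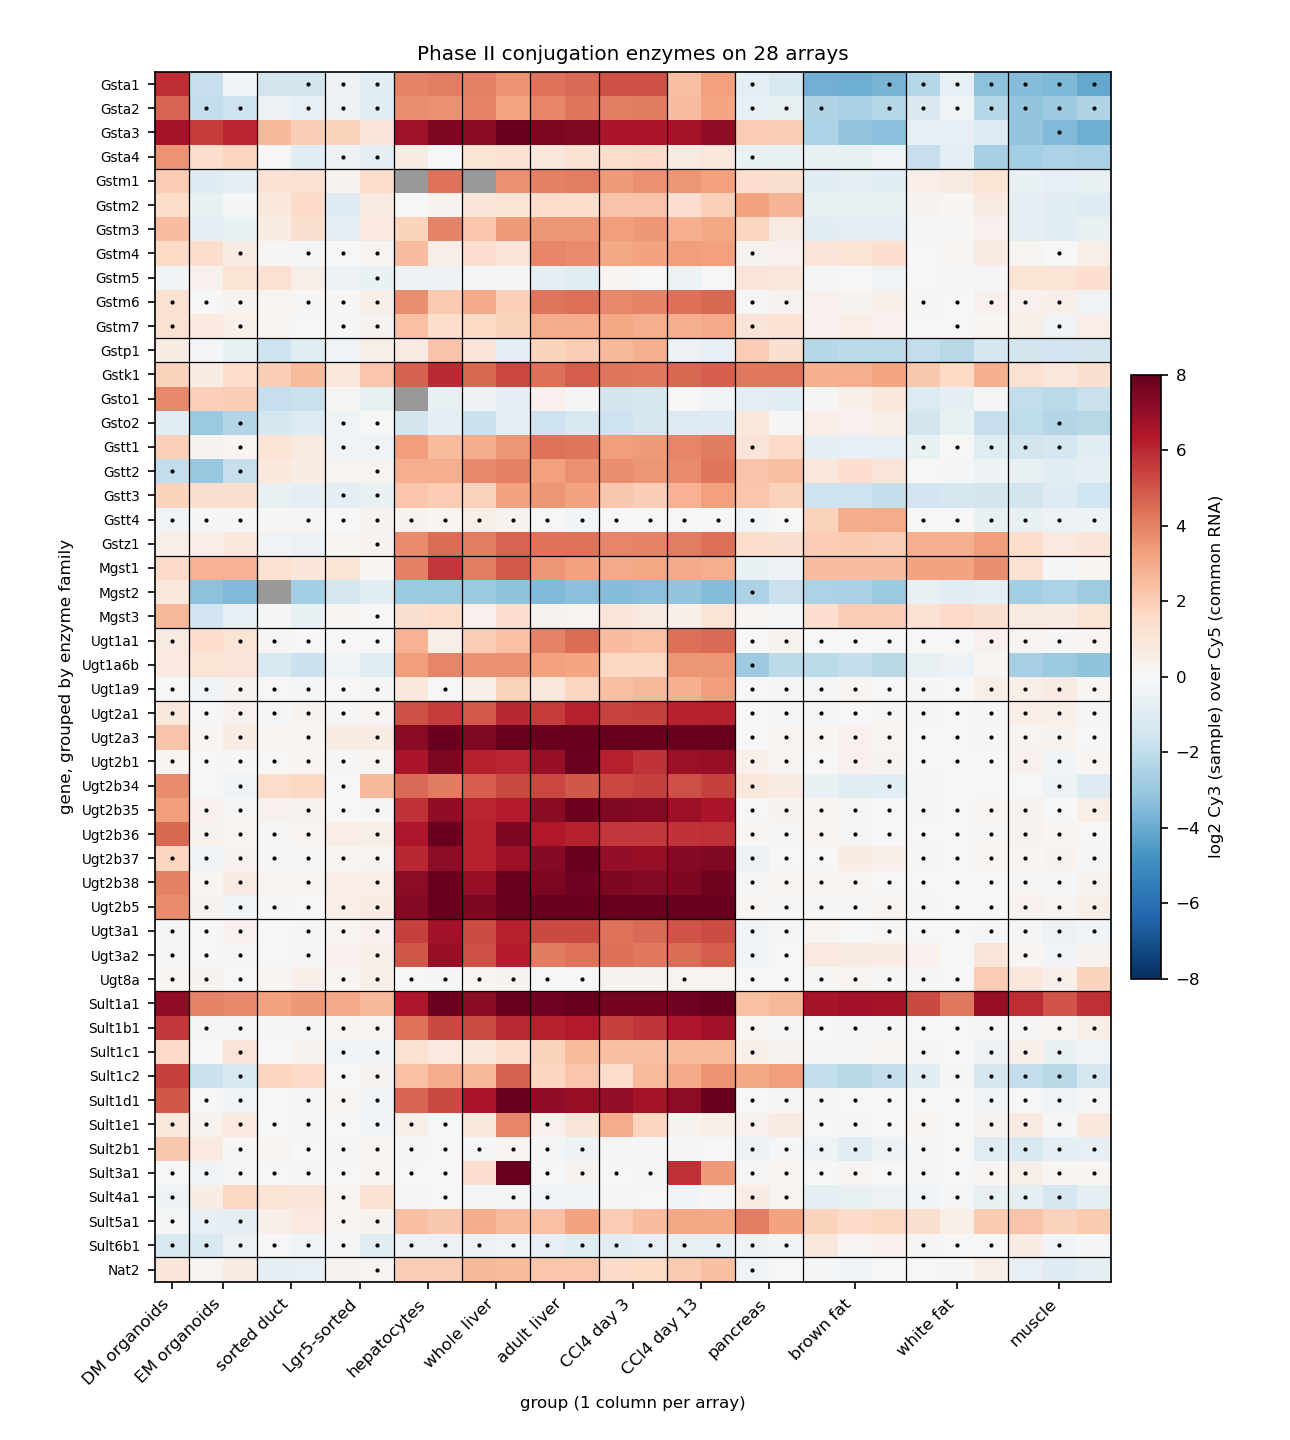
Log2 Cy3/Cy5 of the 50 phase II genes (rows, by subfamily) on the 28 arrays (columns, by group). Colour runs from -8 to 8, a black dot marks a probe not well above background in Cy3 and grey a spot left out as an outlier. The UGT2 rows are high in the liver columns, intermediate in the DM column for several genes, and, apart from Ugt2b34, dotted in most other columns.

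Adult liver, CCl4-treated liver, whole liver and hepatocytes held nearly all members above background. Of the 50 members, 47 were above background on every array of day 13 livers and 47 on every array of day 3 livers, 45 in whole liver, 43 in adult liver and 42 in hepatocytes. The number was 33 on the DM array, against 19 on both EM arrays, and 21 members were above background on neither EM array. Detection on every array is easier to reach in a group with a single array, such as DM. The DM and EM counts are therefore not directly comparable, and the same holds between other groups of unequal size. Duct cells had 27 on both arrays and Lgr5-sorted cells 11, with 28 members on neither array of the sorted Lgr5 cells. Among the other tissues brown fat had 29, white fat 23, muscle 18 and pancreas 17. The share of all probes above background differed as well, at 21.5% and 18.5% on the Lgr5-sorted arrays and 17.8% and 44.1% on the pancreas arrays, and its part in these counts was not tested.

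**Figure D2:**
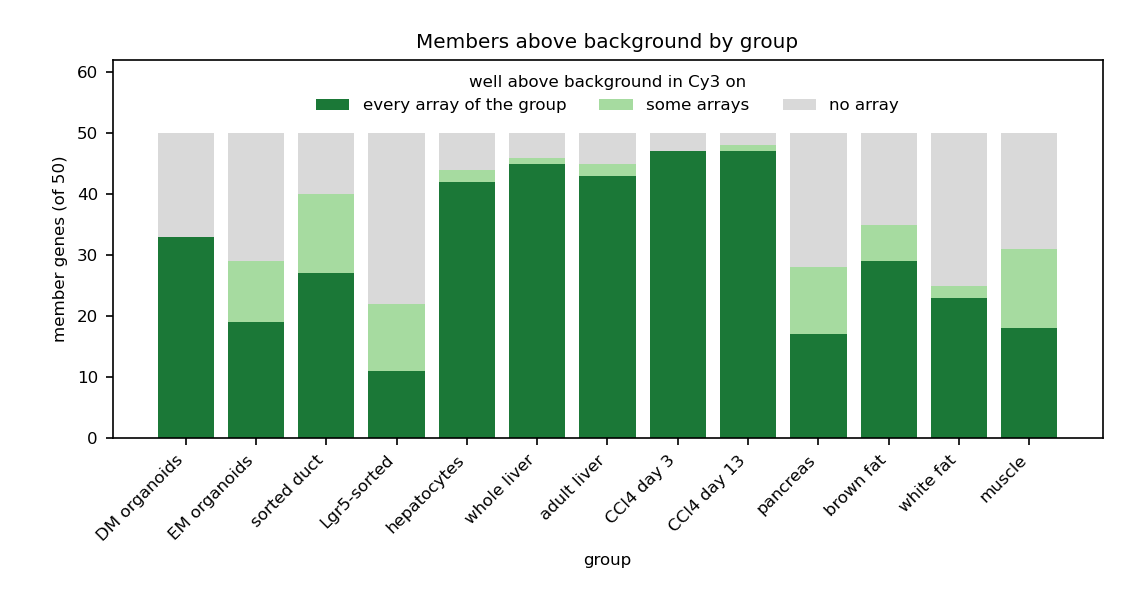
Number of the 50 phase II genes well above background in Cy3 on every array, on some arrays and on no array of each of the 13 groups (stacked bars). The DM organoid bar, which rests on a single array, shows 33 genes, against 19 on every array for the EM organoids and 43 for adult liver. Groups with fewer arrays meet this criterion more easily, and 21 genes were on no EM array.

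Ranked by group mean, the 50 members peaked in different places. Day 13 livers had the highest mean for 9, DM organoids and adult liver for 8 each, whole liver and hepatocytes for 7 each, pancreas and day 3 livers for 3 each, brown fat and muscle for 2 each and EM organoids for 1. The 8 members highest in the DM organoid were Gsta1, Gsta2, Gsta4, Gsto1, Mgst2, Mgst3, Sult1c2 and Sult2b1, and none of them is a glucuronosyltransferase. The DM value is a single array, which reaches an extreme more easily than a mean of several arrays. Peaks were not counted over all genes, so these counts are no separate evidence about the members. Pancreas was highest for Gstm2 (3.24 and 2.69), Gsto2 and Sult5a1 (4.12 and 3.22). Brown fat was highest for Gstt4, at 1.87, 2.99 and 2.98, a theta-class gene that was above background on only 1 other array, a duct array at 0.11. Adjacent places in these orders were often closer than their spread: Gsta3 had 7.24 and 8.03 in whole liver against 7.51 and 7.42 in adult liver, which overlap.

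In EM organoids, set against their parental tissue, adult liver, most phase II genes were low: 38 of the 50 members fell and 3 rose by limma with Benjamini-Hochberg adjustment, where 32% of all genes tested were called, 17.6% fell and 14.4% rose. The median log2 difference of the members was -3.16, against -0.09 over all genes. All 41 called members had arrays that did not overlap between EM organoids and adult liver. With so few arrays per group a call nearly requires this. It was not counted over all genes, so it is no separate evidence about the members. On the scan day that carried 1 array of each, the median difference of the members was -2.78, against -0.08 over all genes. The fall covered each of the 9 UGT2 genes and each of the 3 UGT1 genes, while among the sulfotransferases 6 of 11 fell and 1 rose. The members that rose were Gsto1, Gstm5 and Sult4a1. Sex-linked genes differed as well. On both EM arrays Xist, transcribed from the inactive X chromosome, was above background and the Y-linked Ddx3y was not. On both adult liver arrays the reverse held, so the sex of the source and culture cannot be told apart in this comparison.

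The UGT2 enzymes, which glucuronidate steroids, bile acids and many drugs, were the lowest group in EM organoids, with a median log2 difference of -7.34. Ugt2b5 stood at 0.31 and -0.19 in EM organoids, not above background on either array, against 8.58 and 9.20 in adult liver. Ugt2b1 was at 0.03 and 0.08 in EM organoids, again not above background, against 6.99 and 7.93 in adult liver. The liver arrays of both genes thus lay far above the organoid arrays, and the fall was at least 134-fold for Ugt2b5 (adjusted p = 2.83e-13) and at least 36.9-fold for Ugt2b1 (adjusted p = 2.11e-13). Ugt2b38 fell by 7.23 and Ugt2b36 by 6.01 on the log2 scale, neither above background in EM organoids. The bounds for the other relatives were at least 103-fold for Ugt2a3, 61.4-fold for Ugt2b37, 39-fold for Ugt2b35 and 18.4-fold for Ugt2a1. Ugt2b34 was the exception in detection: it was above background on 1 EM array, at 0.00 and -0.29 in EM organoids against 5.37 and 4.99 in adult liver (log2 difference -5.32 ± 0.49, SE, adjusted p = 2.54e-08).

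UGT1 enzymes fell less far. Ugt1a1, the enzyme that conjugates bilirubin, was at 1.41 and 1.12 in EM organoids against 3.95 and 4.45 in adult liver, a log2 difference of -2.93 ± 0.42 (adjusted p = 7.71e-06). Ugt1a6b, of a class that takes small planar phenols, was at 1.07 and 1.04 in EM organoids against 3.26 and 3.14 in adult liver (-2.15 ± 0.29). It remained above background on both EM arrays, whereas Ugt1a9 was above background on neither (-1.32 ± 0.36, adjusted p = 0.0047). Ugt1a9 lost its call without EM replicate 1 (adjusted p = 0.0593) or adult liver replicate 2 (adjusted p = 0.0982), and Ugt1a1 lost it against whole liver in place of adult liver (-0.90, adjusted p = 0.0894). Ugt3a1 fell by 5.07 and Ugt3a2 by 4.17 on the log2 scale, neither above background in EM organoids. Ugt8a, which makes the galactosylceramide of myelin, was above background on no array of either group.

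Glutathione S-transferases split within their classes. Gsta1 was at -1.83 and -0.23 in EM organoids against 4.32 and 4.56 in adult liver (log2 difference -5.47 ± 0.56, adjusted p = 9.33e-08), and Gsta2 fell at least 36-fold. Gsta3, in contrast, was at 5.53 and 6.08 in EM organoids against 7.51 and 7.42 in adult liver, a smaller log2 difference of -1.66 ± 0.35 (adjusted p = 0.000617) that was -0.99 (adjusted p = 0.059) when the 2 Gsta3 probes were averaged. Gsta4, which acts on the lipid peroxidation product 4-hydroxynonenal, was not called, with 1.39 and 1.70 in EM organoids and 0.90 and 1.21 in adult liver (adjusted p = 0.316). The alpha class therefore held large, small and uncalled differences side by side.

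In the mu class 6 of 7 fell and Gstm5 rose. Gstm1 was at -1.04 and -0.81 in EM organoids against 4.03 and 4.10 in adult liver (-4.99 ± 0.27, adjusted p = 4.91e-11), and Gstm3 fell by 4.20 ± 0.54 on the log2 scale. Gstm5 was at 0.34 and 1.12 in EM organoids against -0.80 and -0.95 in adult liver (1.60 ± 0.24, adjusted p = 1.24e-05). Gstm2 had the smallest fall of the class, by 1.75 ± 0.36 on the log2 scale. Against whole liver in place of adult liver, Gstm5 differed by 0.83, under the fold minimum, and Gstm4 was not called (-0.22, adjusted p = 0.702).

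Gsto1, an omega-class enzyme with thioltransferase and dehydroascorbate reductase activity, had the largest rise of any member in EM organoids. It was at 1.91 and 1.98 in EM organoids against 0.34 and -0.12 in adult liver, a log2 difference of 1.83 ± 0.30 (adjusted p = 4.85e-05). Its neighbour Gsto2 fell by 1.17 ± 0.35 on the log2 scale (adjusted p = 0.0101). Theta-class Gstt2 fell furthest of the 8 genes of these classes, with -3.06 and -1.82 in EM organoids against 3.25 and 3.63 in adult liver (-5.88 ± 0.28, adjusted p = 2.82e-12). Gstz1, the maleylacetoacetate isomerase of tyrosine breakdown, fell by 3.64 ± 0.25 and Gstk1 by 3.62 ± 0.44 on the log2 scale. Gstp1 fell by 2.24 ± 0.48 against adult liver (adjusted p = 0.000625), but against whole liver the log2 difference was -0.45 (adjusted p = 0.491). Of the microsomal enzymes only Mgst3 was called (-1.36 ± 0.33). Without EM replicate 1 neither Mgst3 (-0.91, adjusted p = 0.0554) nor Gsto2 (-0.86, adjusted p = 0.117) was called, and Gsto2 also lost its call without adult liver replicate 2 (-0.97, adjusted p = 0.094). Mgst1 was at 2.79 and 2.77 in EM organoids and 3.55 and 3.22 in adult liver (adjusted p = 0.263), and Mgst2 at -3.30 and -3.52 in EM organoids and -3.55 and -3.32 in adult liver (adjusted p = 0.94).

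Sulfotransferases showed the widest spread. Sult1d1, an enzyme for catecholamines in mice, was at 0.03 and -0.31 in EM organoids, not above background, against 7.08 and 6.97 in adult liver, a fall of at least 32.5-fold (adjusted p = 3.09e-12). Sult1b1, which sulfates thyroid hormones, fell at least 20.7-fold. Sult1a1, the main phenol sulfotransferase, remained above background, at 3.98 and 3.82 in EM organoids against 7.76 and 8.27 in adult liver (-4.12 ± 0.62, adjusted p = 1.53e-05). Sult4a1, known mainly from brain, rose to 0.60 and 1.66 in EM organoids, against -0.31 on each adult liver array, of which 1 was above background (1.44 ± 0.32, adjusted p = 0.000827). Its other probe was above background on only 1 of 28 arrays, and without EM replicate 2 the Sult4a1 difference was 0.91, under the fold minimum. With Cy3 alone Sult4a1 (adjusted p = 0.0662), Ugt1a9 (adjusted p = 0.0757) and, by size, Gsto2 (-0.83) lost their calls. Nat2, which acetylates arylamines, fell by 1.78 ± 0.19 on the log2 scale.

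Genes that work with these enzymes were followed in lists. Of 8 other phase II enzymes, which include methyl and amino acid transferases, 8 fell in EM organoids against adult liver (median -6.40), with Nnmt at -8.13, Baat at -7.32 and Inmt at -7.15. Of 12 genes for donors and cofactors 2 rose and 6 fell. Ugdh, which makes UDP-glucuronic acid, fell by 3.03 and its transporter Slc35d1 by 3.65 on the log2 scale, while the PAPS synthase gene Papss1 rose by 1.79. Among 5 exporters of conjugates, Abcc4 (4.14) and Abcc1 (2.19) rose in EM organoids, while Abcc2 (-4.63), Abcg2 (-3.27) and Abcc3 (-2.17) fell. Of 9 regulators, the nuclear receptors Nr1h4 (-6.14), Nr1i2 (-5.19), Nr1i3 (-4.31), Ppara (-4.01) and Hnf4a (-2.35) fell, and Ahr (2.06) and Nfe2l2 (1.93) rose. Among 5 further targets of Nfe2l2, however, 3 fell and none rose (median -1.26). Each of the 7 hepatocyte markers also fell in this comparison, and their part in the result was not tested.

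In the DM organoid, part of the phase II set was higher than in EM organoids. By limma, 23 of the 50 members rose and 1 fell, where 10.3% of all genes tested were called, 6.25% rose and 4.02% fell, and the median log2 difference was 1.01, against 0.04 over all genes. The rises covered 3 of 4 alpha, 3 of 7 mu, 3 of 8 theta, omega, kappa or zeta, and 2 of 3 microsomal glutathione S-transferases, 7 of 9 UGT2 genes and 5 of 11 sulfotransferases. None of the UGT1, UGT3 or UGT8 genes was called. The DM group is 1 array, which the fit assumes to vary like the other groups. It shared a slide with EM replicate 2, and on that slide the median difference of the members was 1.02, against 0.02 over all genes.

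**Figure D3:**
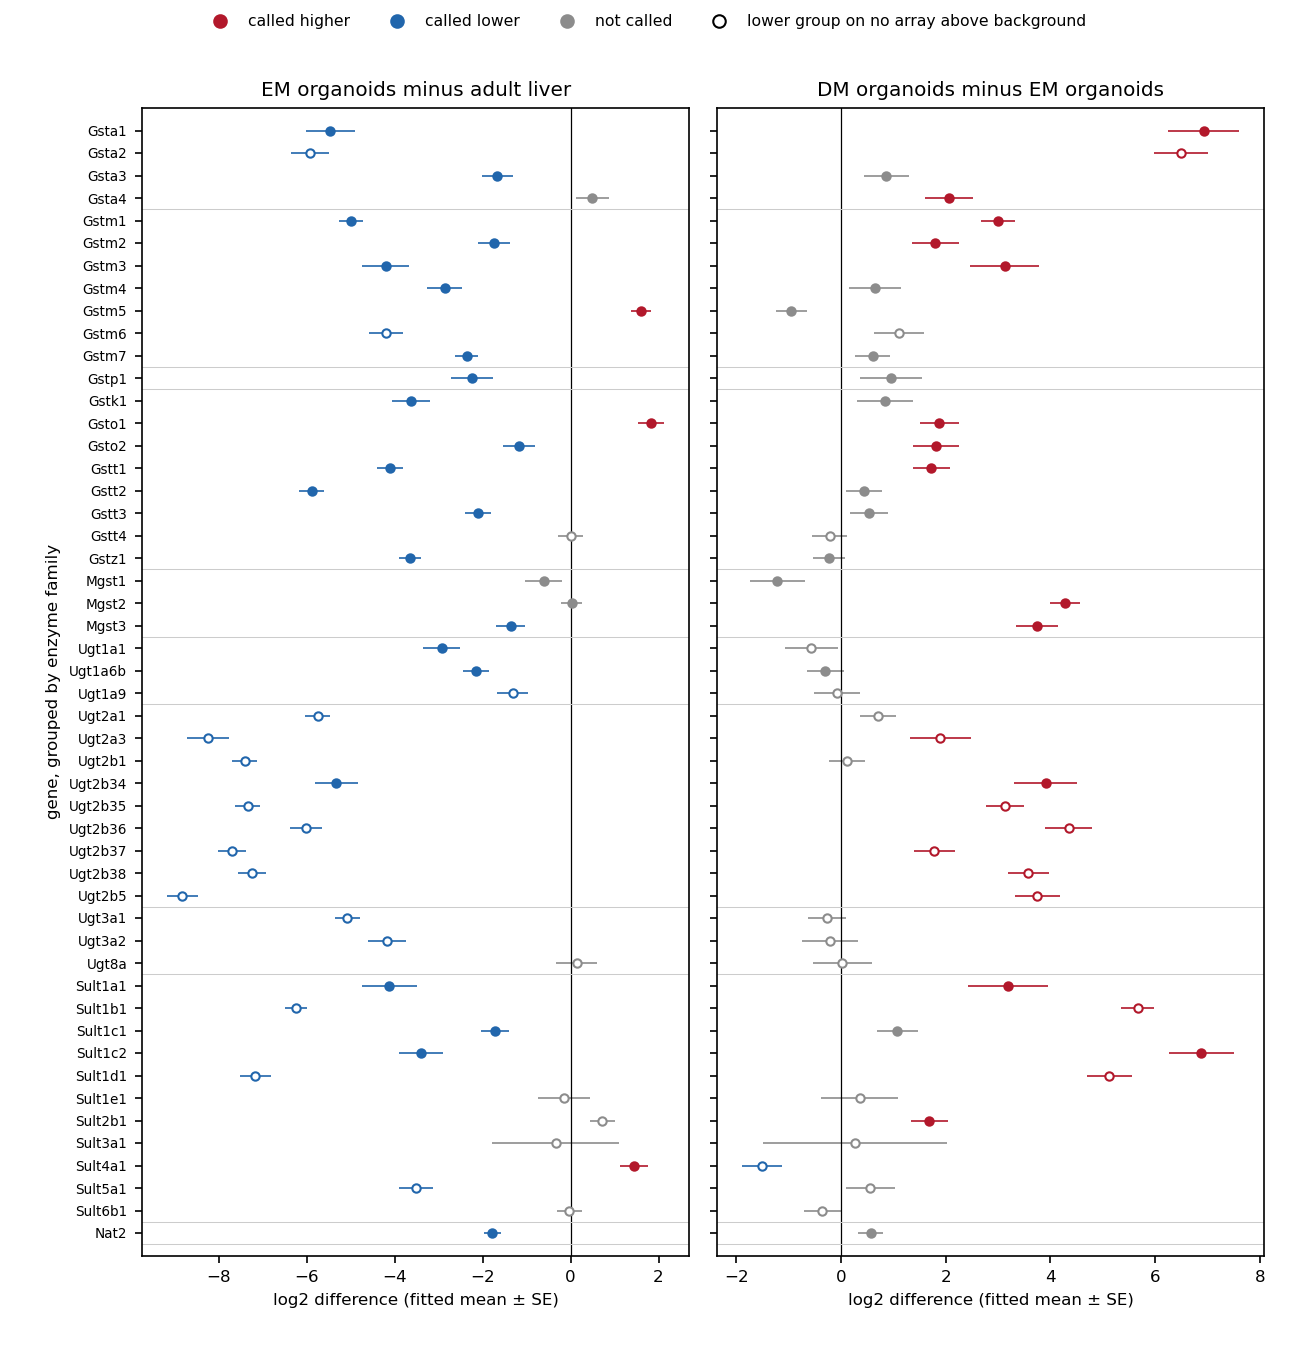
Log2 difference ± SE of each phase II gene in EM organoids minus adult liver and in the DM organoid minus EM organoids, by subfamily. Open symbols mark genes whose lower group was above background on no array. The 9 UGT2 genes lie between -8.83 and -5.32 in the first comparison and between 0.12 and 4.34 in the other, and both comparisons share the EM arrays.

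Gsta1 had the largest rise. It was at 5.90 in the DM organoid against -1.83 and -0.23 in EM organoids (log2 difference 6.92 ± 0.68, adjusted p = 5.93e-07), and the DM value lay above both adult liver arrays (4.32 and 4.56). Gsta2 was at 4.68 in the DM organoid against -1.96 and -1.67 in EM organoids, where it was not above background, a rise of at least 78.8-fold. Gsta4 was at 3.61 in the DM organoid against 1.39 and 1.70 in EM organoids (2.07 ± 0.46, adjusted p = 0.00475). The DM array was thus the highest of all 28 arrays for Gsta1, Gsta2 and Gsta4. Gsta3 was at 6.67 in the DM organoid against 5.53 and 6.08 in EM organoids and was not called (adjusted p = 0.23).

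Microsomal enzymes behaved in different ways. Mgst2, an integral membrane transferase that can form leukotriene C4, was at 0.87 in the DM organoid against -3.30 and -3.52 in EM organoids (4.28 ± 0.29, adjusted p = 7.54e-09). No other array of the series was above 0 for Mgst2, duct array 1 having no value. The nearest were white fat, at -0.60, -0.86 and -0.78, and Lgr5-sorted cells, at -1.40 and -0.93. The adult liver level of Mgst2, -3.55 and -3.32, was close to that of EM organoids, so the DM value was outside the range of the liver groups. Mgst3 was at 2.64 in the DM organoid against -1.55 and -0.67 in EM organoids (3.75 ± 0.40, adjusted p = 1.67e-06) and 0.30 and 0.20 in adult liver. Mgst1 was at 1.56 in the DM organoid against 2.79 and 2.77 in EM organoids, below both, but was not called (adjusted p = 0.146).

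Among the other glutathione S-transferases, Gstm3 (3.13 ± 0.66), Gstm1 (2.99 ± 0.32), Gsto1 (1.88 ± 0.37), Gsto2 (1.82 ± 0.43), Gstm2 (1.80 ± 0.45) and Gstt1 (1.73 ± 0.36) rose. Gsto1 reached 3.83 in the DM organoid against 1.91 and 1.98 in EM organoids. It was 0.34 and -0.12 in adult liver, so both organoid media gave values above liver. Gstm1 rose only to 2.06 in the DM organoid, against -1.04 and -0.81 in EM organoids, and stood below the 4.03 and 4.10 of adult liver. Without EM replicate 1 neither Gstm2 (1.56, adjusted p = 0.0705) nor Gsto2 (1.51, adjusted p = 0.0667) was called. With the deposited Agilent ratio Gsta4 (adjusted p = 0.0867), Gstm2 (0.076) and Gstt1 (0.14) were not called, and with Cy3 alone neither Gsto1 (0.109) nor Gstt1 (0.0571) was. Gsto2 was under the fold minimum when its probes were averaged (0.93). Gstt2 was above background on no DM array and was not called (adjusted p = 0.506).

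Among the sulfotransferases, Sult1b1 and Sult1a1 came near their adult liver values. Sult1b1 was at 5.68 in the DM organoid against -0.09 and 0.12 in EM organoids, a rise of at least 12.4-fold (adjusted p = 1.58e-10), beside 6.14 and 6.37 in adult liver. Sult1a1 was at 7.08 in the DM organoid against 3.98 and 3.82 in EM organoids (3.18 ± 0.76, adjusted p = 0.00746), beside 7.76 and 8.27 in adult liver. Sult1d1 was at 4.98 in the DM organoid against 0.03 and -0.31 in EM organoids, a rise of at least 9.96-fold. Each of these 3 stood below the adult liver arrays, Sult1a1 and Sult1b1 within 1 log2 unit of the nearer. Sult1c2 went past them: it was at 5.44 in the DM organoid against -1.69 and -1.19 in EM organoids (6.88 ± 0.61, adjusted p = 1.57e-07), and at 1.70 and 2.20 in adult liver. Sult2b1, which sulfates cholesterol and related steroids, was at 2.15 in the DM organoid against 0.79 and 0.12 in EM organoids (1.69 ± 0.35, adjusted p = 0.00233) and was not above background on either adult liver array. Sult4a1 was the member that fell, to -0.38 in the DM organoid, not above background, against 0.60 and 1.66 in EM organoids (-1.51 ± 0.39, adjusted p = 0.0125), and its call was lost without EM replicate 2 (-0.98, adjusted p = 0.0968) and with Cy3 alone (adjusted p = 0.366). With the deposited Agilent ratio Sult1a1 (adjusted p = 0.166) and Sult2b1 (adjusted p = 0.183) were not called.

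UGT2 genes rose to levels that stayed below those of liver. Ugt2b36 was at 4.60 in the DM organoid against 0.30 and 0.22 in EM organoids, a rise of at least 7.28-fold (adjusted p = 1.01e-06), beside 6.38 and 6.14 in adult liver. Ugt2b5 was at 3.81 in the DM organoid against 0.31 and -0.19 in EM organoids, at least 3.58-fold higher, beside 8.58 and 9.20 in adult liver. Ugt2b34 was at 3.76 in the DM organoid against 0.00 and -0.29 in EM organoids (3.91 ± 0.61, adjusted p = 0.000151). Bounds for Ugt2b38, Ugt2b35 and Ugt2a3 were at least 4.52-fold, 2.83-fold and 1.57-fold, the call of Ugt2a3 being lost without EM replicate 1 (adjusted p = 0.162), with Cy3 alone (0.0699) and without background subtraction (0.148). The cluster did not move as a block: Ugt2b1 was at 0.17 in the DM organoid, not above background, against 0.03 and 0.08 in EM organoids (adjusted p = 0.922), and Ugt2a1 was not called (adjusted p = 0.227). Ugt2b37 was called (log2 difference 1.78, adjusted p = 0.00395) but was above background on no organoid array of either medium, so no fold is given, and its call was lost with the deposited ratio (adjusted p = 0.0854) and with Cy3 alone (0.0827). Of the genes with the shared upstream run shown above, Ugt2b5 and Ugt2b38 were above background in the DM organoid and Ugt2b37 was not.

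UGT1 genes did not rise. Ugt1a1 was at 0.70 in the DM organoid, not above background, against 1.41 and 1.12 in EM organoids (log2 difference -0.56 ± 0.51, adjusted p = 0.584). Ugt1a6b was at 0.76 in the DM organoid against 1.07 and 1.04 in EM organoids (-0.30 ± 0.36, adjusted p = 0.714). Ugt3a1 and Ugt3a2 were not above background on the DM array, at -0.07 and -0.13.

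**Figure D4:**
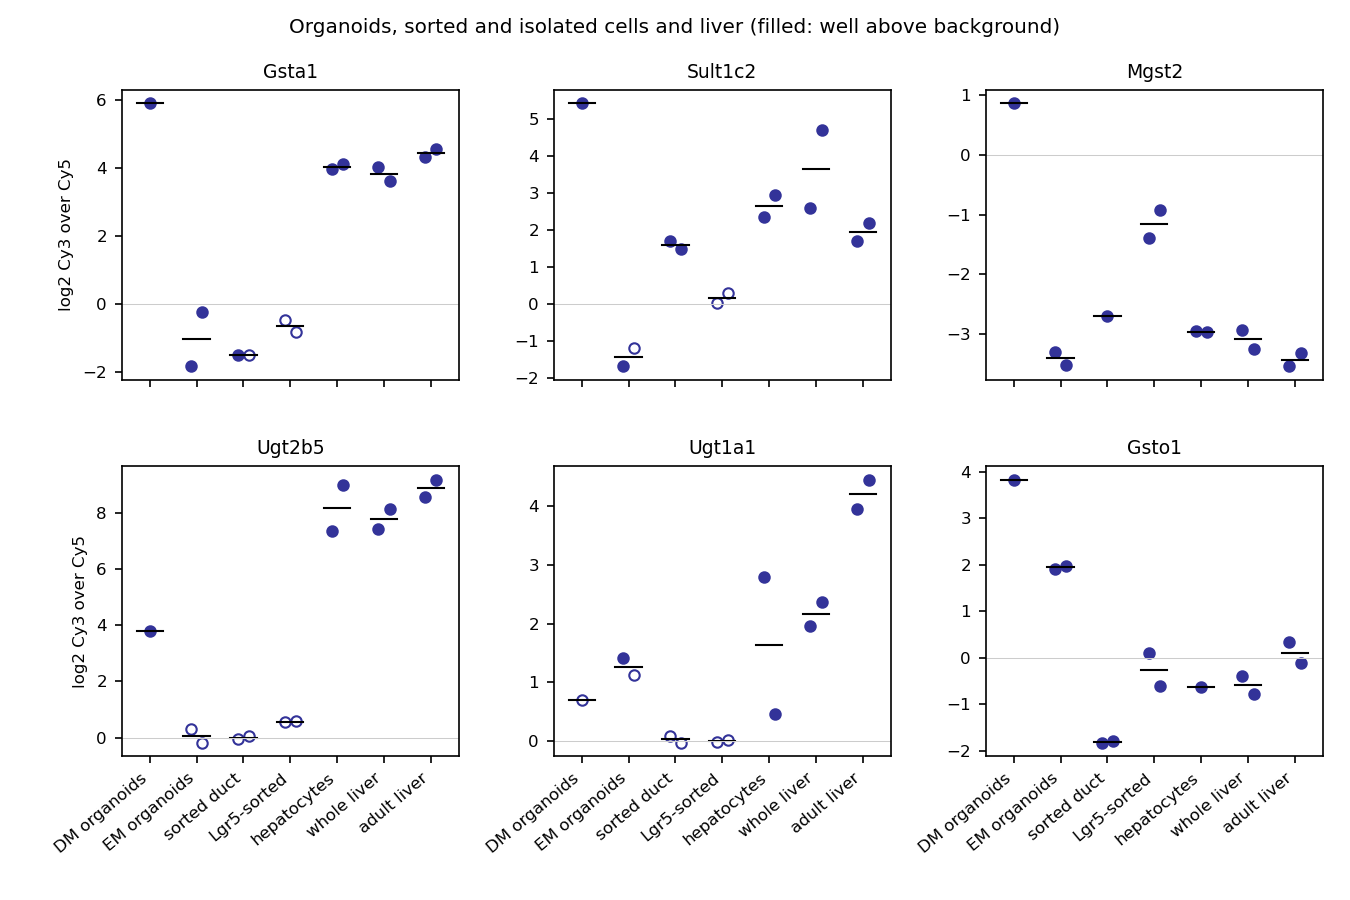
Log2 Cy3/Cy5 on each array for Gsta1, Sult1c2, Mgst2, Ugt2b5, Ugt1a1 and Gsto1 in DM organoids, EM organoids, duct cells, Lgr5-sorted cells, hepatocytes, whole liver and adult liver. Filled points are well above background and bars are group means. The DM point is the highest for Gsta1, Sult1c2, Mgst2 and Gsto1, while for Ugt2b5 it lies between the EM organoids and the livers and for Ugt1a1 below both.

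Partner genes moved in part with the enzymes. Of 12 donor and cofactor genes 5 rose in the DM organoid against EM organoids and none fell: Gclc, the catalytic subunit of glutathione synthesis (2.49 ± 0.30), Ggt1 (1.58), Ugdh (1.39), Papss2 (1.39) and Slc35d1 (1.28). Of 5 exporters, Abcc3 (3.56), Abcc2 (3.09) and Abcg2 (2.39) rose. Of 8 other phase II enzymes, Glyat alone rose (1.24). Among 9 regulators the bile acid receptor gene Nr1h4 (3.90), the xenobiotic receptor gene Nr1i2 (1.46) and Hnf4a (1.16) rose and Ahr fell by 3.14 on the log2 scale. Of 5 further targets of Nfe2l2, the factor of the antioxidant response, none was called. Of 7 hepatocyte markers 1 rose. The DM array also differed from the EM arrays in a Y-linked gene: Ddx3y was at 0.13 and above background in the DM organoid, against -2.93 and -2.45, not above background, in EM organoids, so medium and the sex of the source cannot be told apart.

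Against freshly sorted duct cells, EM organoids had some phase II genes higher and others lower. By limma 9 of 50 members rose and 10 fell, where 26.5% of all genes tested were called, 12.4% rose and 14.2% fell, and the median was 0.07, against -0.03 over all genes. The balance depended on the scale: with Cy3 alone, which moved the median of all genes to -0.93, 9 rose and 28 fell, and without background subtraction 12 were called in all. Gsto1 was at 1.91 and 1.98 in EM organoids against -1.83 and -1.79 in duct cells (3.76 ± 0.30, adjusted p = 1.56e-08), and Gsta3 at 5.53 and 6.08 in EM organoids against 2.61 and 1.95 in duct cells (3.52 ± 0.35, adjusted p = 1.77e-07). Neither gene overlapped between the groups. Ugt1a6b (2.52 ± 0.29), Gsta4 (1.99 ± 0.38), Gstt3 (1.95 ± 0.30), Mgst1 (1.68 ± 0.42), Ugt1a1 (1.24 ± 0.42), Nat2 (1.13 ± 0.19) and Gstz1 (1.06 ± 0.25) rose as well, Ugt1a1 with a sign that turned when the Cy3 channel was used alone (-0.75, adjusted p = 0.207). Calls were lost for Ugt1a1 without EM replicate 1 (adjusted p = 0.118) or duct replicate 1 (adjusted p = 0.0638) or 2 (adjusted p = 0.101). Without EM replicate 2 Nat2 (0.91) and Gstz1 (0.90) fell under the fold minimum, Gstz1 also without duct replicate 2 (0.98).

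The members lower in EM organoids than in duct cells were led by Gstt2, at -3.06 and -1.82 in EM organoids against 0.84 and 0.59 in duct cells (-3.16 ± 0.28, adjusted p = 4.16e-08). Sult1c2 was at -1.69 and -1.19 in EM organoids against 1.71 and 1.50 in duct cells (-3.05 ± 0.50, adjusted p = 6.21e-05), and Gstm1 fell by 2.11 ± 0.27 on the log2 scale. Ugt2b34 (-1.70 ± 0.49), Gstm3 (-1.62 ± 0.54), Gstm2 (-1.51 ± 0.36), Gsto2 (-1.40 ± 0.35), Sult5a1 (-1.34 ± 0.39), Gsta2 (-1.26 ± 0.42) and Gstk1 (-1.26 ± 0.44) were also called. Without duct replicate 2 the calls of Ugt2b34 (adjusted p = 0.056), Gstm3 (0.165), Sult5a1 (0.0767), Gsta2 (0.0592) and Gstk1 (0.2) were lost. Without EM replicate 1 those of Gstm3 (adjusted p = 0.101), Gsto2 (0.0581), Gsta2 (0.115) and Gstk1 (0.225) were lost, without EM replicate 2 that of Ugt2b34 (0.0608) and without duct replicate 1 that of Gsta2 (0.104). The other 8 UGT2 genes were not called and were above background on at most 1 duct array and on neither EM array. With Cy3 alone Gstm1 (-0.72) and Gstm2 (-0.90) were under the fold minimum and Gstm3 was not called (-0.25, adjusted p = 0.524), and with the deposited ratio neither Gsta2 (-0.18, adjusted p = 0.866) nor Gstm3 (adjusted p = 0.0648) was. Stellate markers stood at mean log2 ratios of -6.17 and -5.82 on the EM arrays, against 2.31 and 2.74 on the duct arrays, and endothelial markers at -0.41 and -0.34 on the EM arrays, against 3.37 and 4.79 on the duct arrays. By limma 6 of 6 stellate and matrix, 5 of 5 endothelial and 5 of 5 macrophage markers fell, as did 5 of 5 genes known to be induced by cell isolation (median -4.40) and 4 of 5 further Nfe2l2 targets (-1.54), and their part in these differences was not tested. EM and duct arrays shared no slide or scan day, so the batch cannot be told apart from the group.

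Most phase II genes were lower in duct cells than in hepatocytes. Of the 50 members, 35 were lower in duct cells and 3 higher by limma, where 23.4% of all genes tested were called, 11.5% lower and 11.9% higher, with a median of -2.70 against 0 over all genes. Each of the 9 UGT2 genes was lower in duct cells (median -6.95). Ugt2b36 was at 0.08 and 0.20 in duct cells, not above background, against 6.47 and 8.12 in hepatocytes (log2 difference -7.16), and Ugt2b5 was at least 255-fold lower. Gsta1 (-5.53 ± 0.56), Ugt1a6b (-5.09 ± 0.29) and Gsta3 (-4.88 ± 0.35) were lower with both groups measured. Gstm5 (1.23 ± 0.24, adjusted p = 0.000318), Sult4a1 (1.08 ± 0.32, adjusted p = 0.0114) and Gstm2 (1.05 ± 0.36, adjusted p = 0.032) were higher in duct cells. Gstm5 was at 1.22 and 0.46 in duct cells against -0.38 and -0.40 in hepatocytes, without overlap. Without duct replicate 1 Gstm5 differed by 0.85, under the fold minimum, and Sult4a1 lost its call (adjusted p = 0.0652), as it did without hepatocyte replicate 1 (0.0804). Gstm2 lost its call without duct replicate 2 (0.73, adjusted p = 0.298), hepatocyte replicate 1 (0.176) or hepatocyte replicate 2 (0.064). Gsta4 was not called, with -0.06 and -0.83 in duct cells and 0.58 and -0.02 in hepatocytes (adjusted p = 0.179). Within each of the 2 slides that carried both groups, the median difference of the members was -2.73 and -2.57, against 0 and -0.01 over all genes. Markers of other cells moved too: 6 of 6 stellate and matrix markers were higher in duct cells (median 5.48), as were 5 of 5 endothelial markers (3.50), 5 of 5 genes known to be induced by cell isolation (5.82) and 5 of 6 bile duct markers (3.84), while 6 of 7 hepatocyte markers were lower (-6.48), and their part in the result was not tested. With Cy3 alone Gstm2 (0.95) and Sult4a1 (0.94) were under the fold minimum and Gstm5 was not called (0.60, adjusted p = 0.272). On both duct arrays Xist was above background and the Y-linked Ddx3y was not. The reverse held on both hepatocyte arrays, so the sex of the source and the cell fraction cannot be told apart here.

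Hepatocytes and whole liver differed in few members. By limma none rose and 1 fell, where 0.797% of all genes tested were called, 0.422% rose and 0.375% fell, and 10 of the 50 had an unadjusted p under 0.05. The fall was in Sult1d1, at 4.67 and 5.28 in hepatocytes against 6.54 and 7.98 in whole liver (-2.28 ± 0.35, adjusted p = 0.00194), without overlap. It lost its call with the deposited Agilent ratio, with Cy3 alone and when only the groups compared were fitted. Sult3a1, a sulfotransferase known to be female-predominant in mouse liver, was at -0.01 and -0.03 in hepatocytes, not above background, against 1.37 and 9.92 in whole liver, with no call (adjusted p = 0.0628). The whole liver arrays thus lay far apart in Sult3a1. Xist, transcribed from the inactive X chromosome of females, was at -2.14 and -1.92 in hepatocytes against -1.84 and 2.53 in whole liver, and the Y-linked Ddx3y at 1.37 and 1.98 in hepatocytes against 2.35 and -0.69 in whole liver, so the whole liver array with the high Sult3a1 also differed in sex-linked genes.

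The Lgr5-sorted cells entered no comparison, though their arrays were part of the fit over all groups. Of the 9 UGT2 genes none was above background on both arrays, and Ugt2b34 was at -0.01, not above background, and 2.61. Gsta3 was above background on both, at 1.79 and 0.95, as were Sult1a1 at 3.04 and 2.58, Gstk1 at 0.91 and 2.19 and Mgst2 at -1.40 and -0.93. The Sult1a1 values were below both duct arrays (3.21 and 3.46) and both hepatocyte arrays (6.44 and 7.90).

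Livers at day 3 of CCl4 treatment, set against the 4 undamaged liver arrays (whole liver and adult liver), differed in few phase II genes past the threshold. By limma 3 of 50 members rose and 4 fell, where 6.97% of all genes tested were called, 4.95% rose and 2.02% fell, and the median was -0.18, against 0 over all genes. None of the UGT2 genes was called. Gstp1, a pi-class enzyme known to be male-predominant in mouse liver, was at 2.61 and 2.83 at day 3 against 1.76 and 1.99 in adult liver and 0.95 and -0.80 in whole liver (1.75 ± 0.41, adjusted p = 0.00631). Against adult liver alone the Gstp1 difference was 0.85 (adjusted p = 0.29). Ugt1a9 was at 2.39 and 2.58 at day 3 against 0.93 and 1.72 in adult liver and 0.46 and 1.84 in whole liver (1.24 ± 0.31, adjusted p = 0.00883). Gstm2 was at 2.31 at day 3 on each array, against 1.46 and 1.40 in adult liver and 0.97 and 1.10 in whole liver (1.08 ± 0.32, adjusted p = 0.0244). Against adult liver alone the Gstm2 difference was 0.88 (adjusted p = 0.119). Each of these rises lost its call when either day 3 array was left out: without day 3 replicate 1 and then 2, the adjusted p was 0.0511 and 0.0886 for Gstp1, 0.0617 and 0.113 for Ugt1a9, and 0.163 and 0.155 for Gstm2. Gstm2 also lost its call without whole liver replicate 1 (0.0537) or either adult liver array (0.0501 each), and Ugt1a9 fell under the fold minimum without whole liver replicate 1 (0.90).

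The strongest fall at day 3 was that of the probe named Ugt1a6b, which may read other Ugt1a transcripts too. It was at 1.66 on each day 3 array against 3.26 and 3.14 in adult liver and 3.64 and 3.67 in whole liver (-1.77 ± 0.25, adjusted p = 6.14e-05). Gsto1 was at -1.46 and -1.41 at day 3 against 0.34 and -0.12 in adult liver and -0.39 and -0.78 in whole liver (-1.20 ± 0.26, adjusted p = 0.00348). Gsta3 (-1.05 ± 0.31, adjusted p = 0.0244) and Ugt3a1 (-1.03 ± 0.25, adjusted p = 0.00798) fell as well. Against adult liver alone neither Gsta3 (-0.96, adjusted p = 0.0759) nor Ugt3a1 (-0.81, adjusted p = 0.0707) was called. Against whole liver alone Gsto1 was not called (-0.85, adjusted p = 0.062). None of these genes overlapped between damaged and undamaged livers. With the deposited ratio Ugt1a9 (adjusted p = 0.631), Gstm2 (0.19), Ugt3a1 (0.198) and Gsta3 (0.0567) lost their calls, and with Cy3 alone Ugt1a9 (0.726), Gstp1 (0.245), Gsto1 (0.199) and Gstm2 (0.0502). Ugt1a6b kept its call without any single array, whereas without day 3 replicate 1 Gsto1 (adjusted p = 0.0536), Gsta3 (0.164) and Ugt3a1 (0.121) lost theirs. Without day 3 replicate 2 Gsta3 (0.153) and Ugt3a1 (0.0501) did, without whole liver replicate 2 Gsta3 (0.0882) and, by size, Ugt3a1 (-0.79), and without adult liver replicate 1 Gsta3 (0.0592). Of the 8 other phase II enzymes Inmt fell (-2.70 ± 0.37), of the exporters Abcc2 rose (1.34), and Srxn1, an Nfe2l2 target, rose (1.14). Of 6 stellate and matrix markers 5 rose at day 3, and their part in the result was not tested. Day 3 and undamaged arrays shared no slide or scan day, so the batch cannot be told apart from the group.

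Between day 13 and day 3, by limma 4 members were higher at day 13 and 3 lower, where 5.66% of all genes tested were called, 2.13% higher and 3.53% lower, with a median of 0.29 against 0.01 over all genes. This comparison shares the day 3 arrays with the preceding one. Ugt1a6b was at 3.54 and 3.55 at day 13 against 1.66 on each array at day 3 (1.89 ± 0.29, adjusted p = 0.000216), which is within the undamaged range. Ugt1a1 was at 4.42 and 4.52 at day 13 against 2.46 and 2.37 at day 3 (2.05 ± 0.42, adjusted p = 0.00278), and Gsto1 at -0.05 and -0.29 at day 13 against -1.46 and -1.41 at day 3 (1.27 ± 0.30, adjusted p = 0.0101). Sult3a1 was at 5.86 and 3.41 at day 13 and not above background at day 3, at least 11.9-fold higher (adjusted p = 0.0473). Gstp1 was at -0.49 and -0.67 at day 13 against 2.61 and 2.83 at day 3 (-3.30 ± 0.48, adjusted p = 0.000109). Gsta1 was at 2.40 and 3.30 at day 13 against 5.09 and 5.11 at day 3 (-2.24 ± 0.56, adjusted p = 0.0129). Sult1e1, the estrogen sulfotransferase, was at 0.31 and 0.44 at day 13 against 2.94 and 1.71 at day 3 (-1.95 ± 0.60, adjusted p = 0.0457). Calls of Gstp1, Ugt1a6b and Ugt1a1 held without any single array, but Ugt1a1 was not called with the deposited Agilent ratio (0.82, adjusted p = 0.908). The others depended on single arrays. Without day 3 replicate 1 the adjusted p was 0.205 for Sult3a1, 0.474 for Sult1e1, 0.0845 for Gsta1 and 0.0821 for Gsto1, and without day 13 replicate 1 it was 0.416 for Sult3a1, 0.218 for Sult1e1, 0.183 for Gsta1 and 0.107 for Gsto1. Without day 3 replicate 2 it was 0.212 for Sult3a1, 0.0886 for Gsta1 and 0.0669 for Gsto1, and without day 13 replicate 2 it was 0.065 for Sult3a1 and 0.181 for Sult1e1. With the replicate number as a block Sult3a1 (0.0584) and Sult1e1 (0.0568) were not called. With the deposited ratio Gsta1 (adjusted p = 0.203) and Sult1e1 (0.387) lost their calls, and with Cy3 alone Gsto1 (0.0966), Sult1e1 (0.354) and Sult3a1 (0.119). All of these arrays lay on 1 slide. Muscle markers were at mean log2 ratios of 2.87 and -0.32 and adipocyte markers at 2.23 and 0.04 on day 13 arrays 1 and 2, against -0.65 and -0.51 for muscle and 0.00 and 0.26 for adipocytes at day 3, so day 13 replicate 1 stood apart in both lists. By limma 3 of 6 stellate and matrix markers and 2 of 6 bile duct markers were lower at day 13 than at day 3, and the part of these lists in the result was not tested.

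Sex-linked genes separated the CCl4 groups. Xist was at 2.26 and 2.43 at day 13 against -3.47 and -3.79, not above background, at day 3. Ddx3y was at -1.86 and -1.71, not above background, at day 13 against 2.27 and 2.02 at day 3. Sex and day cannot be told apart in the comparison of day 13 with day 3, which covers Gstp1 and Sult3a1. On adult liver arrays Xist was at -4.53 and -4.67 and Ddx3y at 1.72 and 2.16, so day 3 and adult liver arrays had the same pattern, with whole liver replicate 2 apart. Against whole liver alone 17 members were called at day 3, where 9.02% of all genes tested were called. The part of sex in that count was not tested.

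**Figure D5:**
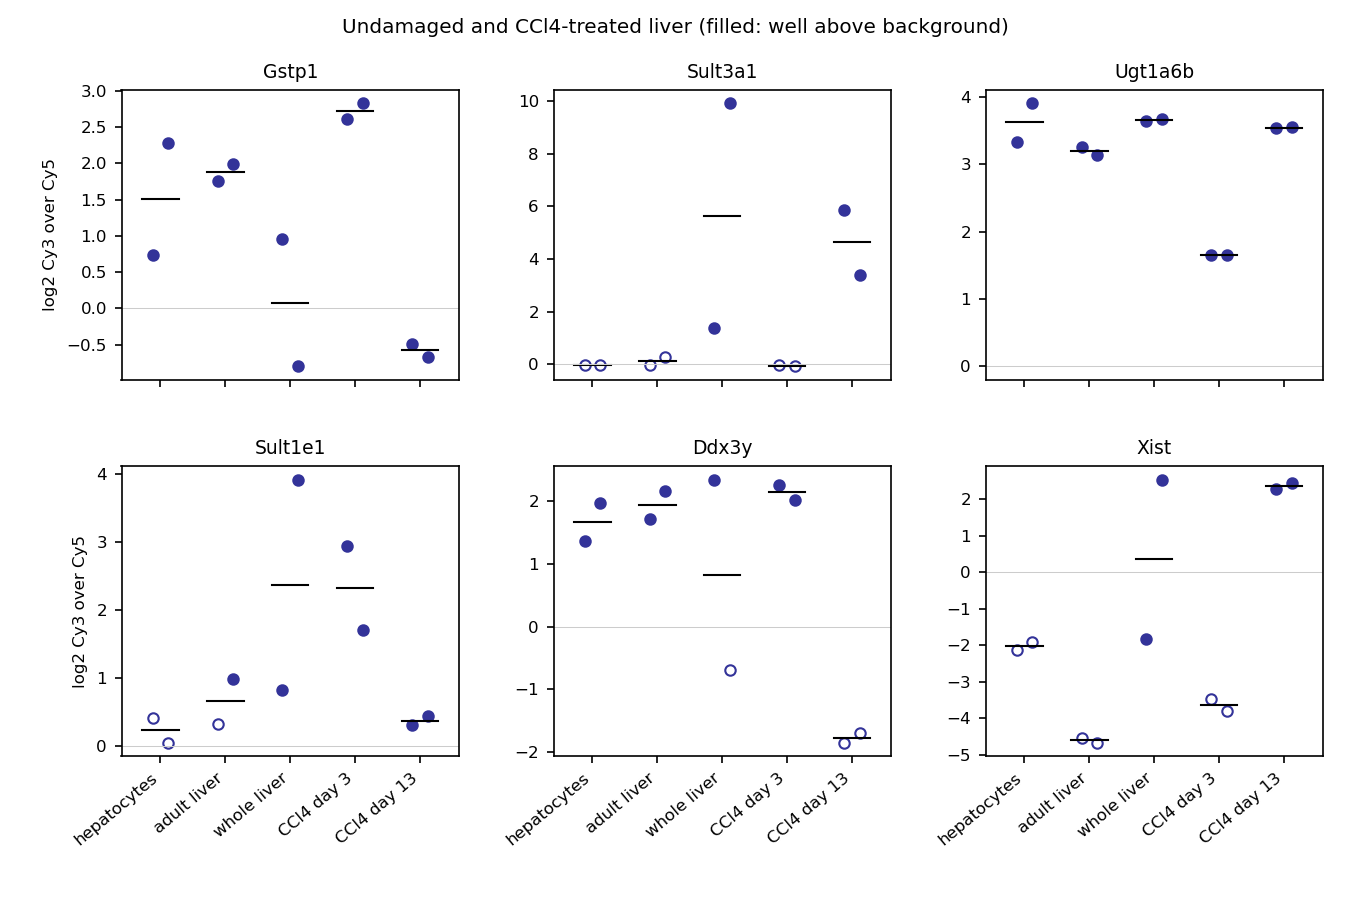
Log2 Cy3/Cy5 on each array for Gstp1, Sult3a1, Ugt1a6b, Sult1e1 and the sex-linked Ddx3y and Xist in hepatocytes, adult liver, whole liver and livers at day 3 and day 13 of CCl4 treatment. Filled points are well above background and bars are group means. Ugt1a6b is at 1.66 on each day 3 array and 3.54 and 3.55 at day 13, while Xist and Ddx3y change places between day 3 and day 13.

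Adult liver set against the mean of pancreas, brown fat, white fat and muscle showed how far these genes mark the liver. By limma 36 of 50 members were higher in adult liver and 2 lower, where 26.2% of all genes tested were called, 11.8% higher and 14.5% lower, with a median of 2.90 against -0.09 over all genes. Each UGT2 gene was higher (median 7.39), Ugt2b38 with a log2 difference of 7.57, Ugt2b36 with 6.16, and Ugt2b5 at least 172-fold. Gsta3 was at 7.51 and 7.42 in adult liver against 2.01 and 1.97 in pancreas, -2.53, -3.13 and -3.32 in brown fat, -0.68, -0.66 and -1.08 in white fat and -3.18, -3.55 and -3.92 in muscle (8.81 ± 0.27, adjusted p = 3.12e-15). Gsta1 (7.09 ± 0.43), Ugt1a6b (5.16 ± 0.23) and Gstt1 (4.60 ± 0.23) were higher too. Sult1a1 was less restricted, at 7.76 and 8.27 in adult liver against 6.60, 6.69 and 6.64 in brown fat and 5.89, 5.04 and 5.87 in muscle (2.96 ± 0.48).

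Not all members favoured the liver. Mgst2 (-1.36 ± 0.18, adjusted p = 4.86e-06) and Gstm5 (-1.35 ± 0.18, adjusted p = 3.77e-06) were lower in adult liver than in the other tissues. With Cy3 alone Mgst2 (-0.74) and Gstm5 (-0.71) were under the fold minimum, and so was Gstm5 when whole liver replaced adult liver (-0.58). Gstm5 was at -0.80 and -0.95 in adult liver against 1.07, 1.10 and 1.33 in muscle and 1.00 and 0.88 in pancreas. Mgst1, Sult1c2 and Gstp1 were called higher in adult liver but overlapped with arrays of another tissue: Mgst1 was at 3.55 and 3.22 in adult liver against 3.20, 3.19 and 3.70 in white fat, Sult1c2 at 1.70 and 2.20 in adult liver against 3.11 and 3.33 in pancreas, and Gstp1 at 1.76 and 1.99 in adult liver against 2.03 and 1.25 in pancreas. Adult liver and the other tissues shared no slide or scan day. The other tissues were mixed in their markers. Muscle markers were at mean log2 ratios of 5.24, 0.82 and 5.25 on the white fat arrays and 4.67, 4.56 and 3.58 on the brown fat arrays. Adipocyte markers were at 3.54, 2.74 and 2.79 on the muscle arrays. The part of this mixing in the differences between tissues was not tested.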

How the data were processed

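Total RNA was hybridised to 2-colour Agilent arrays. The deposited scanner files give, per the file headers, a median intensity and a median background for each channel of a spot, outlier and background flags, and the authors' log10 ratio of Cy5 over Cy3. Feature Extraction 10.5.1.1 is named in the headers and 8.5.1.1 in the submitters' processing notes. The same log10 ratio stands in the deposited series matrix (largest difference 0). From the intensities, log2 Cy3/Cy5 was computed in R 4.3.3 with limma 3.58.1: normexp with an offset of 50, loess within arrays with the 1639 control spots of 45018 at weight 0, and spots of a probe averaged. Outlier spots (0.688%) were dropped, which left no value for Gstm1 on hepatocyte array 1 and whole liver array 1, Gsto1 on hepatocyte array 1 and Mgst2 on duct array 1.

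Probes had to be well above background in the Cy3 channel on 2 or more of 28 arrays, which kept 31112, and the probe with the highest mean log2 Cy3 stood for a gene. One model over 13 groups was fitted with lmFit and eBayes (15 residual and 4.38 prior degrees of freedom), and tests are two-sided. The undamaged livers are the mean of the whole liver and adult liver groups. Arrays lay on 13 slides scanned on 9 days. The fit was tested on simulated data with known changes. Named members are the 5 largest rises and falls among those called in a comparison, with the extremes of a subfamily, and others as members of the families described. Members, lists and comparisons were chosen with earlier results of these data known. Positions are mm9 as in the files, and sequences upstream of genes come from RefSeq (GRCm38.p6). Figures were drawn with matplotlib 3.10.9.

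Replicate numbers were checked for pairing. Deviations of same-numbered arrays from their group means correlated at 0.44 for duct cells and hepatocytes and 0.39 for hepatocytes and whole liver, which shared slides, and between -0.11 and 0.30 elsewhere. Alternatives covered background correction, the deposited ratio, Cy3 alone, the filter, the probe choice, blocks for slide, scan day and replicate number, other reference livers and leaving out each array.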

Additional observations from a re-analysis of the deposited data

How the results depend on the processing

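Counts of called members outside 1.5 times the value reported were these, each from limma with Benjamini-Hochberg adjustment. For EM organoids minus duct cells (19 reported), no background subtraction gave 12 and the Cy3 channel alone 37, with 9 higher and 28 lower. That setting moved the median of all genes to -0.93, cut the share of higher calls over all genes to 26.9% (46.6% reported) and reversed Ugt1a1 to -0.75. For hepatocytes minus whole liver (1 reported), no background subtraction gave 2, the slide as a random block 2, the scan day as a random block 3, and Cy3 alone and the fit of only these groups 0 each, with 7 and 5 members at an unadjusted p under 0.05. For day 3 minus undamaged livers (7 reported), the deposited Agilent ratio gave 4 and whole liver alone as the undamaged group 17. Over all genes these settings called 9.19% and 9.02%. For day 13 minus day 3 (7 reported), the deposited ratio gave 4 and no fold minimum 11. Counts without each array in turn ran from 12 to 19 for EM organoids minus duct cells (12 without duct replicate 2), from 1 to 8 for hepatocytes minus whole liver (8 without whole liver replicate 1, 3 without hepatocyte replicate 1, 2 without hepatocyte replicate 2), from 1 to 9 for day 3 minus undamaged livers (1 and 2 without day 3 replicates 1 and 2) and from 3 to 5 for day 13 minus day 3 (3 without day 3 replicate 1, 4 without day 13 replicate 1). Elsewhere they ran from 38 to 41 for EM organoids minus adult liver, 22 to 25 for DM minus EM organoids, 34 to 36 for duct cells minus hepatocytes and 38 to 40 for adult liver minus other tissues. The causes were not tested. With the replicate number as a block the counts were 41 for EM organoids minus adult liver, 24 for DM minus EM organoids, 19 for EM organoids minus duct cells, 38 for duct cells minus hepatocytes, 1 for hepatocytes minus whole liver, 7 for day 3 minus undamaged livers, 5 for day 13 minus day 3 and 39 for adult liver minus other tissues, and with day 13 and day 3 numbers crossed 6; that crossing was chosen after seeing the data. The share of higher calls over all genes moved by over 10 points also for DM minus EM organoids (49.4% with the deposited ratio, 60.8% reported), hepatocytes minus whole liver (19.5% with the deposited ratio and 18.8% with Cy3 alone, 53.0% reported), day 3 minus undamaged livers (57.0% with Cy3 alone and 60.8% with adult liver alone, 71.0% reported) and day 13 minus day 3 (50.8% with Cy3 alone, 37.6% reported). Over all genes the median became, with Cy3 alone, -0.34 for EM organoids minus adult liver and 0.35 for DM minus EM organoids. Of 2725 values of single members under other settings, 2628 kept direction and call, 96 lost the call and 1 reversed. Without single arrays 935 of 1006 did and 71 lost the call. Aquantile leaves ratios as they are. With 1 or 2 arrays per liver group, and with the EM 2, DM and Lgr5-sorted arrays having few probes above background, levels near the reference RNA of dim probes have only bounds.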
